A study of Drosophila melanogaster with 4 samples.

Results

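The bithorax complex of Drosophila melanogaster lies on chromosome arm 3R and holds the Hox genes Ubx, abd-A and Abd-B. Its trimethylation of histone H3 at lysine 27 (H3K27me3) was described from lists of enriched regions made by chromatin immunoprecipitation and sequencing (ChIP-seq). The members were all enriched regions that touched 3R between 12430000 and 12870000 (FlyBase release 5). There were 59 such regions of 25702 over the 3 lists deposited. Replicate 1 held 10 of its 4865 regions there, replicate 2 held 30 of 10330, and the list given for the whole series held 19 of 10507.

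The material was nuclei from adult heads of the wild-type strain Oregon-R-modENCODE, of mixed adult stage, raised as caged populations run on 22-day cycles, with the heads sieved apart from the bodies. Fixed and sonicated chromatin was precipitated with an Abcam antibody against H3K27me3, lot 3. The groups were 2 H3K27me3 ChIP libraries and 2 input libraries of the same strain and stage, 1 input for each ChIP library, and the labels name no transgene, mutation or treatment in any of them. The labels do not say if each replicate was a collection of flies of its own, and the difference between replicates may be a technical one. Read numbers are unknown, and the lists hold no expression values against which the head label could be checked. A head contains neurons, glia, muscle, fat and cuticle cells, and in such bulk chromatin a mark in fewer cells and less of the mark per cell cannot be told apart.

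Hox genes encode homeodomain transcription factors that set the identity of body segments, and they lie on the chromosome in the order of the segments they control. The genes of the bithorax complex act in the posterior thorax and the abdomen and are a textbook target of Polycomb silencing, in which Polycomb repressive complex 2 (PRC2) methylates lysine 27 of histone H3. In anterior parts of the body, the head among them, Polycomb proteins are known to keep these genes off. All 3 genes are transcribed towards the centromere, so the end of each gene nearer to the centromere (the proximal end, with the lower coordinate) holds its last exon, and the distal end holds its most upstream promoter.

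The genes were placed by their RefSeq positions of release 6, moved by the constant 4174278 bp between the releases on 3R. Ubx lies at 16656623 to 16734426 in release 6, which is 12482345 to 12560148 in release 5, and is 77.8 kb long. The gene abd-A lies at 16807214 to 16830049 in release 6, which is 12632936 to 12655771 in release 5, and is 22.8 kb long. Abd-B lies at 16927212 to 16972236 in release 6, which is 12752934 to 12797958 in release 5, and is 45.0 kb long. From the proximal end of Ubx to the distal end of Abd-B the complex spans 315.6 kb. The first question was how much of it was marked in heads.

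H3K27me3 covered nearly the whole complex in both replicates. Of the span from Ubx to Abd-B, regions took up 98.7% in replicate 1 and 96.3% in replicate 2, a mean of 97.5% ± 1.73 (SD, n = 2), and 98.7% in the whole-series list. Over all of 3R the shares were 28.5%, 40.3% and 44.4% in the same lists. The wider window of 440.0 kb was covered to 82.1% in replicate 1, to 81.8% in replicate 2 and to 85.3% in the whole-series list. The replicates thus differed by less over the window than over the arm, where replicate 2 had the longer list. Parts of the window differed more, in opposite directions. The part proximal to Ubx was covered to 15.4% in replicate 1 and 33.8% in replicate 2. The part distal to Abd-B was covered to 58.0% and 53.0%. With 2 replicates and no group to set against them, an exact permutation of signs (two-sided) cannot give a p below 0.5, and none was run.

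**Figure D1:**
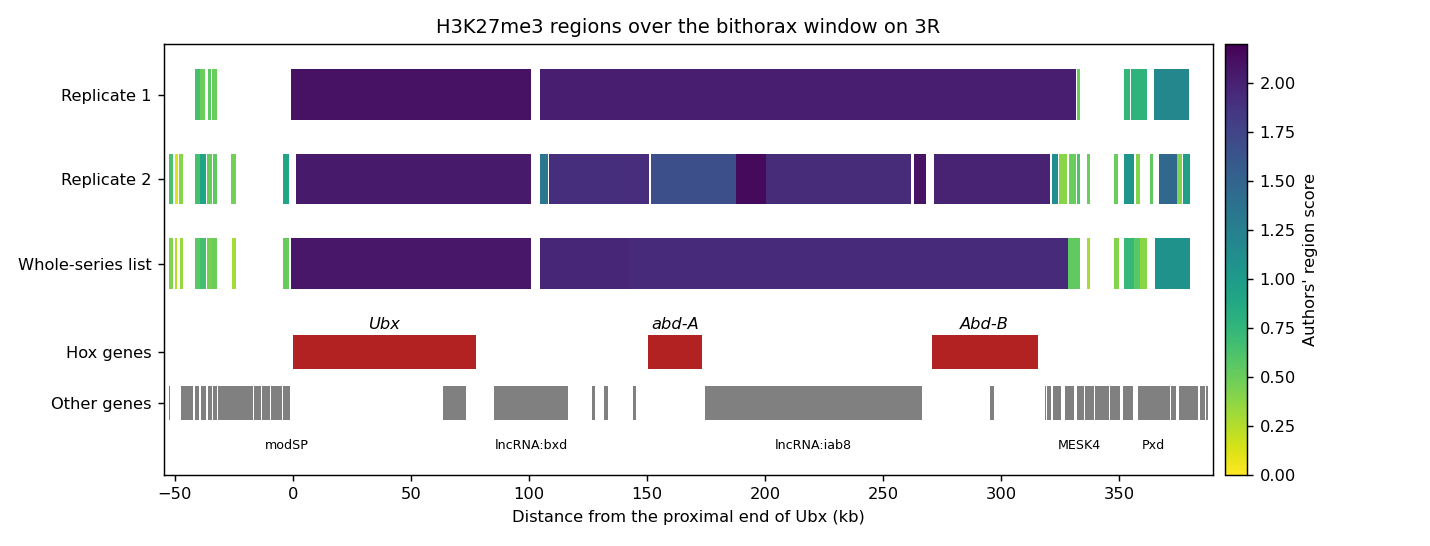
Map of H3K27me3 regions over the bithorax window, with the distance from the proximal end of Ubx in kb on the horizontal axis and 1 row for each list; colour gives the authors' region score, and gene bodies are drawn below (Hox genes in red). The 3 Hox genes lie in a block of high scores with 1 gap between Ubx and Abd-B in replicate 1 and 9 gaps over the same span in replicate 2; the gap in the bxd RNA gene is in every list.

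Ubx, which gives the third thoracic and first abdominal segments their identity, was touched by 1 region in every list. The region measured 101.5 kb in replicate 1 (12481635 to 12583143), 99.3 kb in replicate 2 (12483843 to 12583138) and 101.4 kb in the whole-series list (12481787 to 12583144). It covered 100% of the gene body in replicate 1 and 98.1% in replicate 2, a mean of 99.0% ± 1.36 (SD, n = 2), and 100% in the whole-series list. The uncovered part in replicate 2 was the first 1498 bp counted from the proximal end. The antisense RNA gene asRNA:PS4 inside Ubx was covered whole in each list. Past the distal end of Ubx, the region went on for 22995 bp in replicate 1 and for 22990 bp in replicate 2, so the upstream promoter of Ubx was not near an edge of the call in either replicate.

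The gene abd-A, which acts in the abdominal segments that follow, was covered to 100% in replicate 1 and to 95.3% in replicate 2, a mean of 97.6% ± 3.35 (SD, n = 2). In replicate 1 it lay within a single region of 227 kb (12587207 to 12814232), which also held Abd-B. In replicate 2 it was touched by 2 regions, an 8.17 kb region that ended 231 bp inside the gene and a 36.0 kb region that held 94.2% of it. The 1083 bp between them ran from base 232 to base 1314 of the gene, counted from its proximal end. Both replicates thus covered the distal, upstream end of abd-A. The whole-series list covered all of the gene within a region of 186 kb (12624789 to 12810540).

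Abd-B, which specifies the most posterior abdominal segments and has several promoters, was covered to 100% in replicate 1 and to 97.9% in replicate 2, a mean of 99.0% ± 1.48 (SD, n = 2). In replicate 2 the gene was touched by 1 region of 49.2 kb (12753874 to 12803024). That region began 940 bp inside the proximal end of the gene and followed a gap of 3200 bp that lay across that end. The RefSeq table lists 10 transcripts for Abd-B, against 6 for Ubx and 4 for abd-A, and no uncovered base lay in the distal part of the gene in any list.

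In replicate 2 the bases left uncovered in the 3 genes were therefore all near their proximal ends, where transcription is known to finish. They came to 1498 bp in Ubx, 1083 bp in abd-A and 940 bp in Abd-B. None of these stretches was uncovered in replicate 1 or in the whole-series list, so this was seen in 1 replicate of 2. When regions under 5000 bp apart were joined, they covered all 3 genes to 100% in both replicates.

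The background against which the members are read is the share of 3R genes covered to at least 90% of their body, a limit that all 3 Hox genes passed in every list. Of 4206 genes placed on 3R, 14.4% passed it in replicate 1, 21.0% in replicate 2, 23.5% in the whole-series list and 12.1% in both replicates. The share was smaller among long genes. Of the 245 genes of at least 20 kb, to which the 3 Hox genes belong, 11.8% passed in replicate 1, 12.7% in replicate 2, 18.0% in the whole-series list and 9.39% in both replicates. The median covered share of these long genes was 4.32% in replicate 1 and 31.4% in replicate 2.

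Genes that make RNA without a long protein fill much of the sequence between the Hox genes. Apart from the 3 Hox genes, 14 annotated genes lay between the ends of the complex: 8 long non-coding RNA genes, 1 antisense RNA gene, 2 miRNA genes and 3 protein-coding genes. Of these, 13 were covered to at least 90% in both replicates, and lncRNA:bxd was not. The sequence between Ubx and abd-A, 72.8 kb long, was covered to 94.4% in replicate 1 and 93.8% in replicate 2. The sequence between abd-A and Abd-B, 97.2 kb long, was covered to 100% in replicate 1 and 96.1% in replicate 2. The genes mir-iab-4 and mir-iab-8, which come from opposite strands of the same DNA and are known to repress Hox genes of the complex, were covered whole in every list. So was Glut3, a sugar transporter gene between Ubx and abd-A. The gene lncRNA:iab8, whose transcript crosses from the Abd-B side to the abd-A side and is known to repress abd-A in the nervous system, was covered to 100% in replicate 1 and 98.4% in replicate 2.

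A single gap of more than 1 kb inside the complex was left uncovered by both replicates, and it lay in lncRNA:bxd, a gene of the regulatory sequence upstream of Ubx. The gap ran from 12583144 to 12587206 in replicate 1 (4063 bp), from 12583139 to 12587207 in replicate 2 (4069 bp) and from 12583145 to 12587188 in the whole-series list (4044 bp). It began 22996 bp past the distal end of Ubx in replicate 1. The last base before it differed by 5 bp between the replicates, and the first base after it by 1 bp. Because of the gap, lncRNA:bxd was covered to 86.9% in replicate 1, to 86.5% in replicate 2 and to 87.0% in the whole-series list. A further shared gap measured 22 bp and lay at the distal edge of the block, and the whole-series list covered it.

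Among all gaps counted on 3R, those placed alike in both replicates were rare. Of 636 gaps of 1 to 10 kb between neighbouring regions of replicate 1 on the arm, 2 had both edges within 25 bp of the edges of a gap in replicate 2, which is 0.314%. Both of these were among the 18 gaps with a region of at least 10 kb on each side, of which they made up 11.1%. They were the gap in lncRNA:bxd and a gap of 5345 bp after 13402129. Taken singly, the left edge was matched in 32 of the 636 gaps and the right edge in 24. The tolerance of 25 bp was chosen after the gap at lncRNA:bxd had been seen. Among the 18 gaps between wide regions the count was the same at 100 bp. The 636 gaps were not recounted at 100 bp. What leaves this sequence uncalled was not tested.

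Between Ubx and Abd-B, replicate 1 had no further gap, the whole-series list had 1 of 50 bp, and the others belonged to replicate 2. Within the 334 kb of the block held by both replicates, replicate 1 had 2 gaps with 4155 bp in all, and replicate 2 had 13 gaps with 14696 bp in all. The gaps of replicate 2 had a median of 905 bp. Those over 1 kb included the gap in lncRNA:bxd and 1 of 1290 bp in lncRNA:iab8. The others lay at the proximal ends of Ubx (2208 bp), abd-A (1083 bp) and Abd-B (3200 bp). The gap at Ubx measured 2955 bp in all and was cut here at the first base of the block in replicate 1. Replicate 1 thus covered its counted part by construction. It also covered the gaps at abd-A, Abd-B and lncRNA:iab8 whole. Uncovered sequence was 1.24% of the 334 kb in replicate 1 and 4.40% in replicate 2.

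**Figure D2:**
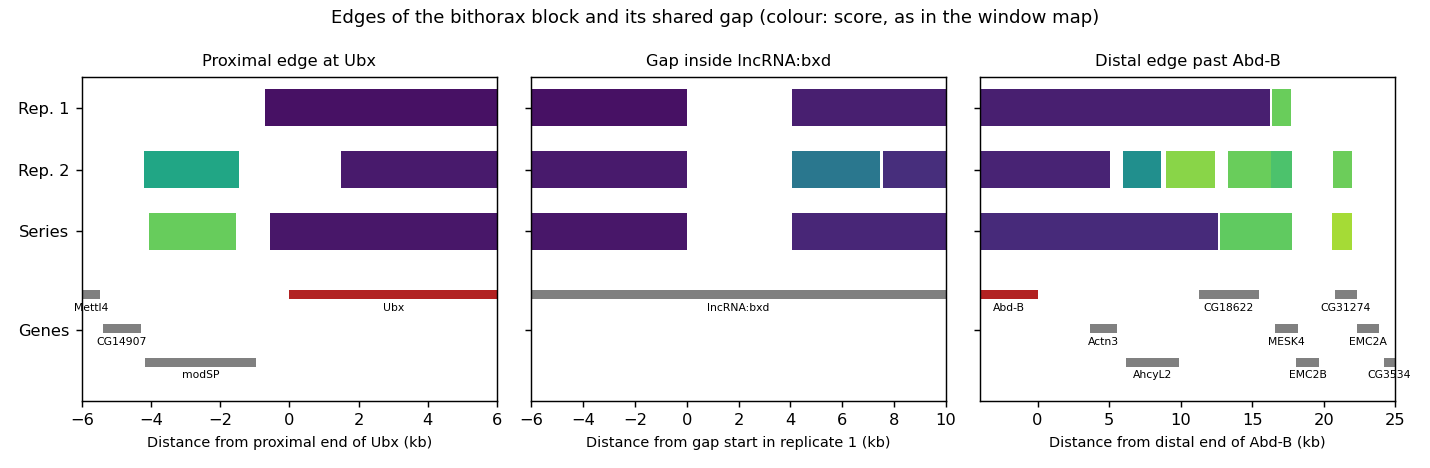
Close views of the proximal edge, the gap in lncRNA:bxd and the distal edge of the bithorax block, with the distance in kb from the named point on each horizontal axis, 1 row for each list and gene bodies below. The gap starts and ends at nearly the same place in every list, whereas the distal edge has 1 low-scoring piece after the wide region in replicate 1. In replicate 2 a row of pieces follows, with a score of 1.11 for the first and 0.391 to 0.621 for the rest.

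At its proximal side the block ended at different places in the lists, near Ubx or across its neighbour modSP, a gene for a serine protease of the immune response. In replicate 1 the first covered base lay 710 bp before the proximal end of Ubx and 250 bp past modSP. Next to it, 31.4 kb were free of regions. In replicate 2 the region over Ubx began 1498 bp inside the gene, and a separate region of 2742 bp with a score of 0.898 covered 84.6% of modSP, which was at 0% in replicate 1. The whole-series list also held a region over modSP, with a score of 0.515. The start of the high-scoring region thus differed by 2208 bp between the replicates, and the weaker call over modSP was made in replicate 2 and not in replicate 1.

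The high-scoring region ended farther from Abd-B at the distal side. In replicate 1 the 227 kb region ran 16274 bp past the distal end of Abd-B, over VhaM9.7-d (a proton pump subunit), Actn3 (an actin cross-linker), AhcyL2 and CG18622, and a last piece of 1369 bp reached into MESK4. In replicate 2 the region over Abd-B ended 5066 bp past the gene. After it came pieces of 2692 bp with a score of 1.11, 3379 bp with 0.391, 3012 bp with 0.501, 1434 bp with 0.621 and 1315 bp with 0.492, against 1.99 for the region over Abd-B. In the whole-series list the region ended 12582 bp past Abd-B. EMC2B, which encodes a subunit of a membrane-protein insertion complex, was at 0% in each list. Regions joined over gaps under 10 kb made a block of 334 kb in replicate 1, 342 kb in replicate 2 and 342 kb in the whole-series list. Its width ranked 5 of 1208 such blocks in replicate 1, 7 of 2136 in replicate 2 and 12 of 1961 in the whole-series list. The stretch free of regions distal to the block was 18606 bp in replicate 1, 10289 bp in replicate 2 and 10154 bp in the whole-series list. In the latter lists it was just over the limit of 10 kb, so the distal end and the ranks depend on that limit. Wider limits were not run.

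Outside the block the regions of the window were narrower and of lower score than those over the Hox genes. Of 17 genes of the window proximal to Ubx, 8 were at 0% in both replicates, among them CCT3, which encodes a subunit of a protein-folding chaperonin. Of 24 genes distal to Abd-B, 7 were at 0% in both, among them Sf3a1, a splicing factor gene. Taken singly, replicate 1 had 11 of the 17 and 13 of the 24 at 0%, and replicate 2 had 8 and 7. Over all of 3R, 75.2% of genes were at 0% in replicate 1 and 59.5% in replicate 2. Genes without a region were thus less frequent in these flanks than on the arm, in each replicate. The flanks were counted from the Hox genes, however, and hold genes of the block itself. In replicate 1 these include VhaM9.7-d, Actn3, AhcyL2 and CG18622, all covered whole. Genes outside the block were not counted apart, so the lower frequency cannot be ascribed to them. Farther from Ubx, narrow regions of 1461 to 2112 bp in replicate 1 lay over CG17562, CG17560, CG14893 and Ccdc114, with scores of 0.497 to 0.648. The same genes had regions in replicate 2, with scores of 0.508 to 0.913. Replicate 2 had a further narrow region over NPF, which encodes a feeding neuropeptide, and 1 over the cell adhesion gene Fas1. These genes were at 0% in replicate 1.

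Distal to the block, a second and weaker stretch lay over Pxd, a peroxidase gene, and its neighbours. In replicate 1 a region of 15.0 kb with a score of 1.18 covered CG5225, CG31268 and CG4009 whole. In replicate 2 the same stretch was held by 3 regions, the widest of 7.57 kb with a score of 1.47. Adsl, an enzyme gene of purine synthesis that lies inside Pxd, was at 0% in replicate 1 and at 61.0% in replicate 2. The window itself cut close to regions at its proximal end. The first region inside it there scored 0.648 in replicate 1 and 0.629 in replicate 2, where it lay across the limit. The nearest region outside ended 888 bp before the window in replicate 1 (score 0.714) and 1346 bp before it in replicate 2 (score 0.344). At the distal end the next regions lay 83.2 kb and 13.0 kb beyond the window, with scores of 0.755 and 0.381.

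The regions over the Hox genes had high scores in their lists. No source used here gives the scale of these values, which are the authors' own, and they served to rank regions within a list. The Ubx region scored 2.10 in replicate 1, rank 48 of 4865, and 2.05 in replicate 2, rank 100 of 10330. In the whole-series list it scored 2.07, rank 89 of 10507. The region with abd-A and Abd-B scored 2.01 in replicate 1, rank 65. In replicate 2 the main abd-A region scored 1.67, rank 286, and the Abd-B region 1.99, rank 125. Each of these regions scored above at least 97.2% of its list. Ubx thus had the highest score of the 3 genes in each list and abd-A in replicate 2 the lowest.

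**Figure D3:**
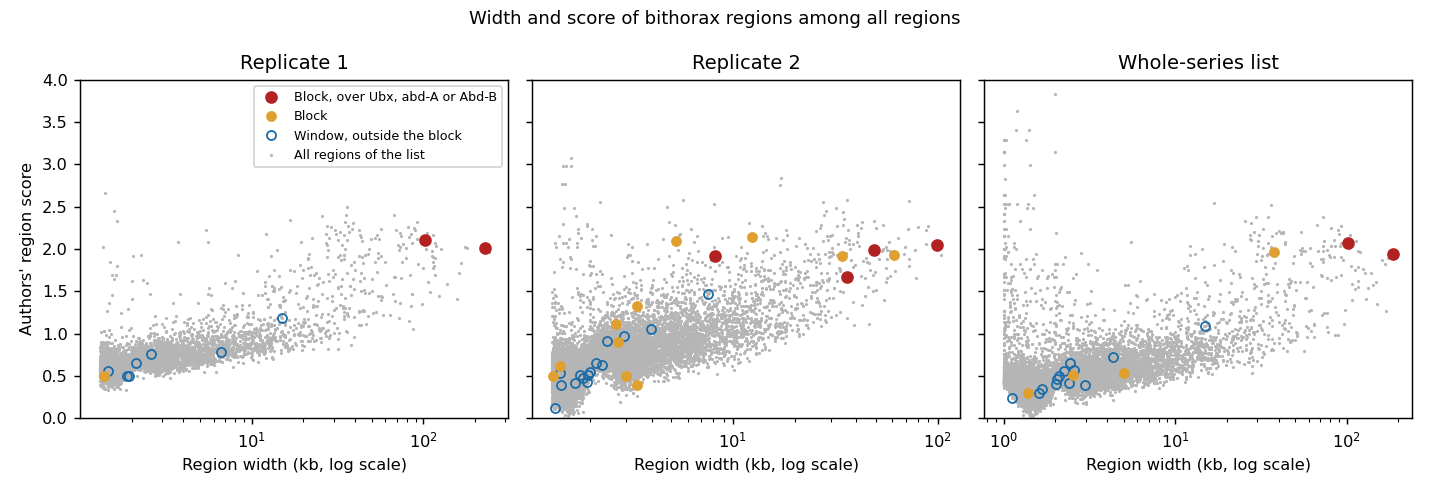
Region score against region width (kb, log scale) for all regions of each list (grey), with the regions of the window outside the block as open circles, those of the block in orange and those over Ubx, abd-A or Abd-B in red. Most Hox gene regions are among the widest of their lists, the 8.17 kb region at the end of abd-A in replicate 2 is not, and narrower regions reach higher scores in every list.

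The ranks were less extreme among wide regions alone. Among regions of at least 10 kb, the Ubx region ranked 44 of 504 in replicate 1 and 58 of 649 in replicate 2, and the Abd-B region 58 of 504 and 75 of 649. The abd-A region of replicate 2 ranked 178 of 649, above 72.6% of such regions. Among the 29 long 3R genes covered to at least 90% in replicate 1, Ubx had rank 3 by length-weighted score, and abd-A and Abd-B shared rank 5. Among the 31 such genes in replicate 2, Ubx had rank 4, Abd-B rank 6 and abd-A rank 16. Within the block in replicate 2, the highest score was 2.14, for a region of 12.4 kb that held lncRNA:iab4 and the mir-iab-4 locus. It was followed by 2.09 for a region of 5242 bp at the distal end of lncRNA:iab8. Replicate 1 had a single region over all of this sequence, so the score cannot be split there.

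Genes of fixed lists on 3R were set beside the Hox genes of the complex. The Antennapedia complex holds the Hox genes of the head and anterior thorax. Of its 5 Hox genes (lab, pb, Dfd, Scr and Antp), all were covered to at least 90% in both replicates, with the lowest value, 96.3%, at Scr in replicate 2. Their neighbours zen, bcd and ftz were covered to 100% in both. The gene hth, which encodes a cofactor of Hox proteins, was covered to 99.8% in replicate 1 and 94.5% in replicate 2. Of 9 genes for Polycomb, trithorax and insulator proteins (Scm, Sce, Caf1-55, trx, ash2, mor, osa, su(Hw) and Cp190), whose proteins act on the bithorax complex or on chromatin in general, none reached 90%. All 9 were at 0% in replicate 1 and 8 in replicate 2, where trx had 1.41%. Most genes of the arm were at 0% too (75.2% in replicate 1 and 59.5% in replicate 2), and nothing particular to this list can be read from its count.

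**Figure D4:**
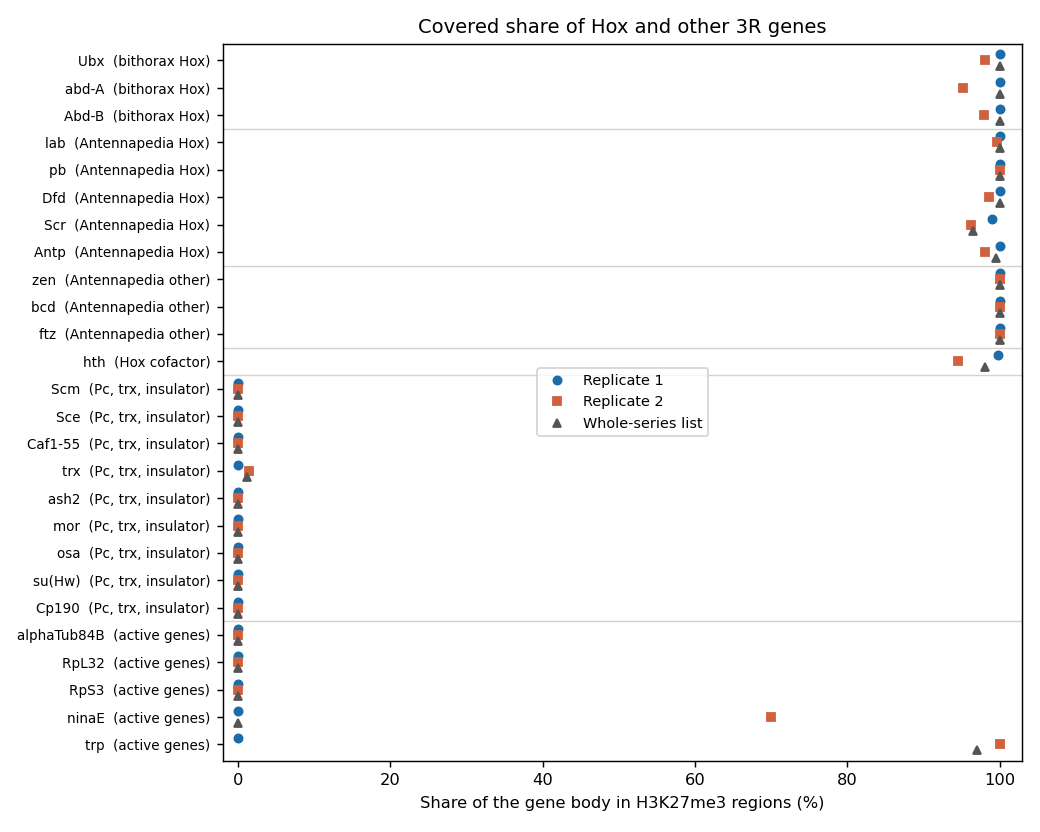
Share of the gene body in H3K27me3 regions (%, horizontal axis) for the 3 bithorax Hox genes and for the fixed lists of 3R genes, with circles for replicate 1, squares for replicate 2 and triangles for the whole-series list. Hox genes lie between 95.3% and 100%, and genes for chromatin proteins at or near 0%, while the photoreceptor genes ninaE and trp differ between the lists.

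Genes active in heads or in all cells were less uniform. The tubulin gene alphaTub84B and the ribosomal protein genes RpL32 and RpS3 were at 0% in each list. The photoreceptor genes ninaE, for the main rhodopsin, and trp, for a cation channel of phototransduction, were at 0% in replicate 1 but at 70.0% and 100% in replicate 2. In the whole-series list ninaE was at 0% and trp at 97.0%. Covered shares of single genes could thus differ widely between the replicates, as they also did at modSP at the edge of the bithorax block.

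The complex was last set against other gene complexes of 3R, each taken from outer gene end to outer gene end. The covered share of the bithorax span, 97.5% ± 1.73, and that of the Antennapedia span of 337.8 kb, 97.1% ± 1.96 (SD, n = 2 each), differed within a list by 0.266 points in replicate 1 and 0.593 in replicate 2. The mean difference of 0.430 ± 0.231 (SD, n = 2) exceeded its own spread but was smaller than the spread of either share between replicates. In the whole-series list it was 0.821 points, in the same direction. Against the NK homeobox cluster (tin to slou, 178.2 kb, 92.1% ± 1.07), whose genes specify muscle and heart cells, the bithorax share was higher by 5.85 points in replicate 1 and 4.91 in replicate 2. That difference of 5.38 ± 0.663 (SD, n = 2) exceeded its own spread and the spread of either share between replicates. With n = 2, a mean above its own spread is no test of a difference, here or for the Antennapedia span. Against the E(spl) complex of Notch target genes (43.4 kb) the difference was 13.3 points in replicate 1 and -1.53 in replicate 2, so the replicates did not give the same direction.

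**Figure D5:**
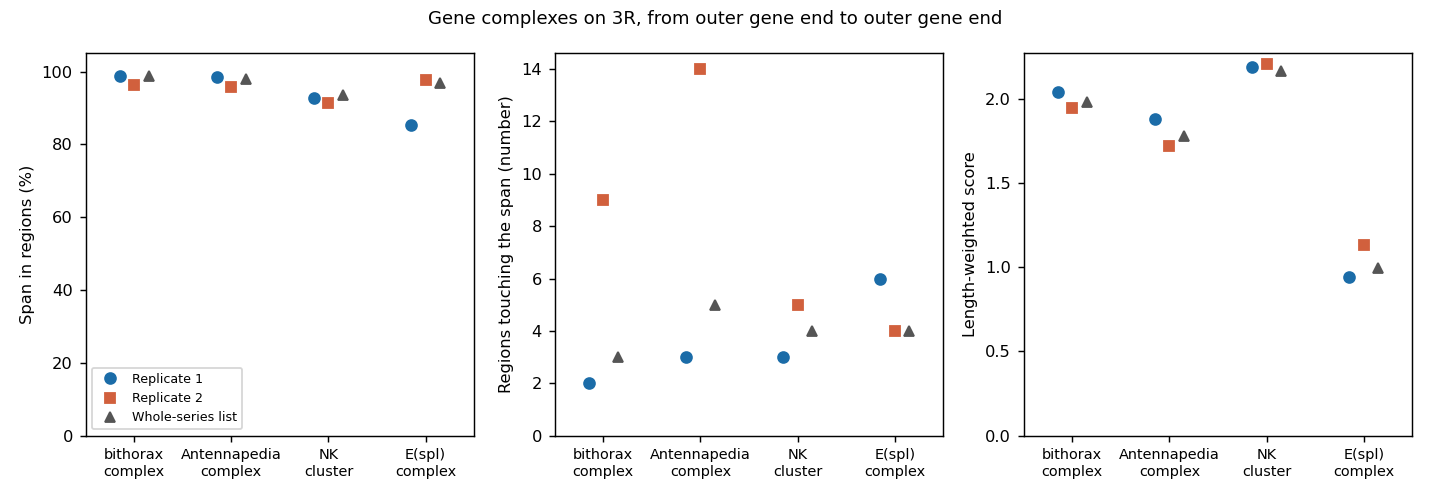
Covered share of the span (%), number of regions touching the span and length-weighted region score for the bithorax complex and for 3 other gene complexes of 3R, with circles for replicate 1, squares for replicate 2 and triangles for the whole-series list. The bithorax span is close to the Antennapedia span in covered share, and its score lies below the NK cluster and above the other complexes in each list.

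Scores ordered the complexes alike in the lists. Weighted by length, the score over the bithorax span was 2.04 in replicate 1 and 1.95 in replicate 2. It was 2.19 and 2.21 over the NK cluster, 1.88 and 1.72 over the Antennapedia span, and 0.941 and 1.13 over E(spl). The bithorax span was touched by 2 regions in replicate 1 and by 9 in replicate 2, and the Antennapedia span by 3 and by 14. The NK cluster was touched by 3 and by 5, E(spl) by 6 and by 4, and all of 3R held 1376 and 2575 regions. More pieces in replicate 2 were thus shared by both Hox complexes, the NK cluster and the arm, but not by E(spl). The widest gap was 4063 and 4069 bp in the bithorax span against 3940 and 5670 bp in the Antennapedia span.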

How the data were processed

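ChIP-seq of H3K27me3 was deposited as lists of enriched regions, 1 for each of 2 ChIP libraries and 1 for the series. The aligner was Bowtie 0.12.7 (per the submitters' processing notes), and positions are on FlyBase release 5, per the file headers. The authors deposited a score with each region; no source used here gives the scale, the caller, the threshold or whether reads were pooled for the series list. A call list hides signal below its threshold and grows with depth, which is unknown. In replicate 2, 1 region marked as depleted was left out. Gene positions came from a RefSeq table of release 6 by subtracting 4174278 bp on 3R, a constant given for this work, with no chain file to check it. Of 4226 genes on 3R, 4206 could be placed. The table has no strand, so gene starts of all genes were not counted. Covered shares, gaps and ranks were computed in Python 3.11.15 with numpy 2.4.6 and pandas 2.3.3 and checked on 50 simulated lists with known answers. Named genes were the 3 Hox genes, the genes of the window and fixed lists on 3R. The members and lists were chosen with earlier results of these data known. Alternatives were joining, width, score and list-length limits, other gene limits and each replicate alone.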

Additional observations from a re-analysis of the deposited data

How the results depend on the processing

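Of 102 alternative values, 65 moved by less than the spread between replicates (or, for counts, by at most 1.5 times). Some of the 65 were fixed in advance. Leaving out 1 of 2 replicates shifts a mean by less than this spread whatever the values. Only counts or a change of sign could be marked there. Joining regions under 1000 or 5000 bp apart cannot alter the width of a block already joined over gaps under 10 kb. The 65 are thus no measure of robustness on their own. The 65 include the mean covered share of the Hox gene bodies under every alternative run. Single genes did move with 5000 bp added on each side, Ubx to 95.4% and Abd-B to 97.1%, and abd-A did not. Lists with regions joined or removed changed other values by construction. With regions under 1000 bp apart joined, the window was covered to 82.8% in a mean of 10 pieces with 1 shared gap, and bithorax exceeded Antennapedia by 0.0922 points. With 5000 bp these values were 86.6%, 4, 0 and 0.839, the excess over the NK cluster was 6.90 points and 26.0% of 3R genes passed 90%. With regions of at least 5000 bp the values were 75.4%, 6.5, 1, 0.192 points, 16.5 points over E(spl), 11.2% of genes and a block of 326 kb. With scores at or above the median they were 77.7%, 10, 1, 0.728 points and 331 kb, and with equal lists 78.7%, 12.5, 1, 0.728 points and 331 kb. The span from Ubx to Abd-B was covered to 97.5%. Genes passed to 24.0% with a limit of 50% and to 12.2% for long genes. Among regions of at least 10 kb, the share scoring below the Hox gene regions had a mean of 86.7% over the genes and both replicates. It was lowest, at 72.6%, for abd-A in replicate 2. Leaving out each replicate gave 10 pieces (replicate 1 alone) to 30 (replicate 2 alone), 2 to 13 gaps, 81.8% to 82.1% of the window and a difference from E(spl) of -1.53 to 13.3 points, which was reversed in replicate 2 alone; the cause was not tested. No paired analysis was possible because no region list of an input was used here to set against its ChIP library; differences between complexes were taken within each replicate. Unknown depth limits each comparison of list lengths.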
